A study of Arabidopsis thaliana with 4 samples.

Results

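Expression of 10 core hypoxia and fermentation genes was described in *Arabidopsis thaliana* seedlings doubly mutant for DAZ3 and TREE1. The genes were taken by locus identifier with no threshold on their values, though the set was drawn up with earlier results of these data known. They are ADH1 (AT1G77120), PDC1 (AT4G33070), PDC2 (AT5G54960), SUS1 (AT5G20830), SUS4 (AT3G43190), HB1 (AT2G16060), PCO1 (AT5G15120), PCO2 (AT5G39890), SAD6 (AT1G43800) and LBD41 (AT3G02550), and they stood among 33931 identifiers named in the deposited table. Of the 10, 9 had a row of their own, and LBD41 was merged with a neighbouring gene and is kept apart. The compared groups were ethylene, *daz3tree1* seedlings in the Columbia background that were grown in the dark for 3 days and then held for 4 hours in hydrocarbon-free air with 10 ppm ethylene, and air, the same double mutant held for 4 hours in the same air without ethylene. Each group had 2 libraries of whole seedlings, and both groups carry both mutations, so the comparison describes a response of the mutant. Wild-type seedlings were not analysed here. Whether the 2 libraries of a group represent separate cultures is not in the labels, and the p-values then measure a spread that may be technical.

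Plants that run short of oxygen slow respiration and make ATP by glycolysis, and they regenerate NAD+ by fermenting pyruvate to ethanol. Sucrose synthase feeds sucrose into glycolysis, pyruvate decarboxylase turns pyruvate into acetaldehyde, and alcohol dehydrogenase reduces acetaldehyde to ethanol. Oxygen is sensed by plant cysteine oxidases, which oxidise the first cysteine of group VII ERF transcription factors and so mark them for degradation by the N-degron pathway. When oxygen falls these factors persist and induce the hypoxia genes. Ethylene is linked to this response because it collects in submerged tissue, where it is known to raise HB1, a haemoglobin that removes nitric oxide.

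The values were the authors' FPKM, fragments scaled to transcript length and library size, with 1 value per group, so levels of different genes can be set side by side but no SD could be given. Depth per library is unknown. A gene was called where the authors' p, after Benjamini-Hochberg adjustment over 18696 tested rows, was below 0.05. In the text a 95% interval of a log2 fold change is the one implied by the authors' p under a normal approximation. TREE1 was listed at 0.327 FPKM in ethylene and 0 FPKM in air, DAZ3 at 0 FPKM in both, and neither was tested. Root and shoot markers were present in both groups. PYK10, a root and hypocotyl beta-glucosidase, had 3868 FPKM in ethylene and 4093 FPKM in air, CASP1, of the root endodermis, had 176 FPKM in ethylene and 170.2 FPKM in air, and RBCS1A, of cotyledons, had 13205 FPKM in ethylene and 12576 FPKM in air. ATML1, of the shoot epidermis, had 52.0 FPKM in ethylene and 48.0 FPKM in air. The defining markers of the root tip and of root hairs, PLT1, COBL9 and EXPA7, were at or below 0.383 FPKM in both groups. Called were 0 of 3 tested root markers and 0 of 4 shoot markers, beside 6.34% of all tested rows. At an unadjusted p under 0.05, 1 of each was higher. These were SHR of the root (21.2 FPKM in ethylene and 15.8 FPKM in air) and CAB2 of the shoot (24.3 FPKM in ethylene and 14.9 FPKM in air). CAB2 was called higher at a threshold of 0.10, with a filter at 5 FPKM and with centring on the median of tested rows. Summed, the 6 root markers had 4065 FPKM in ethylene and 4279.7 FPKM in air. The 4 shoot markers summed to 13288 FPKM in ethylene and 12644 FPKM in air. Nearly all of the root sum was PYK10, and nearly all of the shoot sum was RBCS1A. Of 4 root markers above 0 in both groups, 3 had higher and 1 lower values, with a median log2 fold change of 0.24. The 4 shoot markers all had higher values, with a median of 0.26. In whole seedlings, fewer cells of a type and less RNA per cell cannot be told apart.

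Of the 10 genes, PDC2 and SAD6 were called higher with ethylene, and the other members were not called or not tested. Neither call held at a threshold of 0.01 or with a correction for transcript GC content. The PDC2 call was also lost on scaling to reference genes, and the SAD6 call when untested rows entered the adjustment. Among the 8 members with a tested row of their own, 2 were called higher and 0 lower, against 2.17% of all tested rows called higher and 4.18% called lower (6.34% in either direction). At an unadjusted p under 0.05 the counts were also 2 and 0. The median log2 fold change of the 9 members with their own row was 0.08, and that of all tested rows was -0.02; scaled to the reference genes described at the end, these medians were -0.18 and -0.28. Members ranged from -0.63 to 2.66 on the log2 scale. Of 20 tested relatives in the same families, 0 were called higher and 1 lower (2 and 2 at an unadjusted p under 0.05), and the median log2 fold change of the 21 relatives with a row of their own above 0 in both groups, tested or not, was -0.22. Of 7 member rows that were tested and not called, LBD41's merged row included, 5 had an upper bound below a 2-fold increase.

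**Figure D1:**
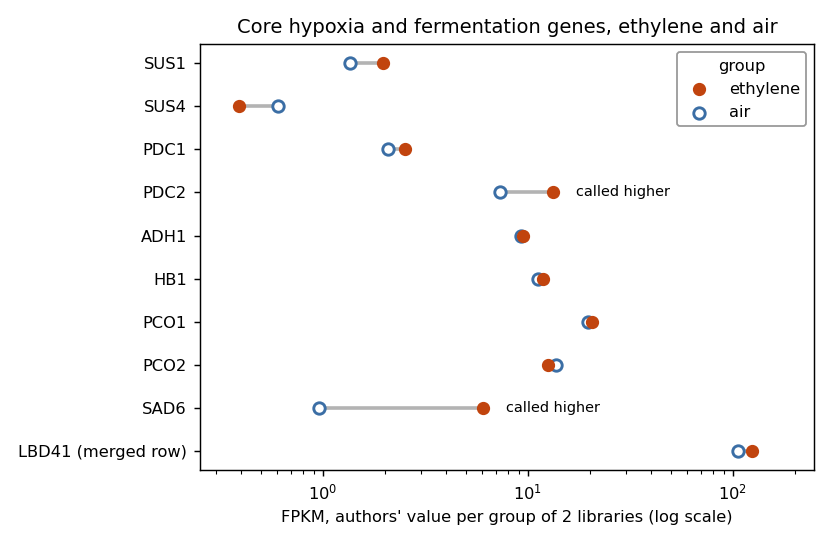
FPKM of the 10 genes (log axis), 1 authors' value per group of 2 libraries: filled points are ethylene and open points air, joined by a line. SAD6 (6.02 FPKM in ethylene and 0.955 FPKM in air) shows the widest gap, and the points of ADH1, HB1 and PCO1 nearly touch.

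The 250 bases upstream of the annotated gene start are shown for both called members and, for comparison, for PDC1 and ADH1, which carry out the same pathway and were not called. They were read 5′ to 3′ on the gene's strand from the TAIR10.1 reference (RefSeq). Capitals mark AAACC on either strand (GGTTT when read from the other strand), the GT motif known from the anaerobic response element of maize, and GCCGCC, the core of the GCC box that ERF factors bind. The windows are chr1:16577271-16577520 on the plus strand for SAD6, chr5:22312833-22313082 on the minus strand for PDC2, chr4:15954804-15955053 on the minus strand for PDC1 and chr1:28975005-28975254 on the plus strand for ADH1.
SAD6: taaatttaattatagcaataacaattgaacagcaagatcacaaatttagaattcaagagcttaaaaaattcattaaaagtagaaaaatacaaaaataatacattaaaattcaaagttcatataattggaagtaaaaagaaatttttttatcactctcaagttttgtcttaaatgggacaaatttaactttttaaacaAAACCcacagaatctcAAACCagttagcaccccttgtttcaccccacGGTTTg
PDC2: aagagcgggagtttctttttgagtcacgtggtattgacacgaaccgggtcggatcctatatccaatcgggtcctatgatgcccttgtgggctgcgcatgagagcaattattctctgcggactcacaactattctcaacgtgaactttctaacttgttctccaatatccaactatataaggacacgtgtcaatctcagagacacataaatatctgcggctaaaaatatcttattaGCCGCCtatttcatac
PDC1: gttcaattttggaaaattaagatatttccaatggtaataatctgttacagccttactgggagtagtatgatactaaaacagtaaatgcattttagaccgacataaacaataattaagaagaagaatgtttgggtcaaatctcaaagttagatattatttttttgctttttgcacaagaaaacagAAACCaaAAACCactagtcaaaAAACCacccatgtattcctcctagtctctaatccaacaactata
ADH1: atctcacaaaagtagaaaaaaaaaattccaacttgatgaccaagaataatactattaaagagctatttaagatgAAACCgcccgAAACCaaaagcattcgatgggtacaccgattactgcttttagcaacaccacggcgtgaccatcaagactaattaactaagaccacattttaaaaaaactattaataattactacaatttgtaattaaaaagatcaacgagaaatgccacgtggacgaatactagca
SAD6 and PDC1 each held 3 copies of AAACC, ADH1 held 2 and PDC2 held 0. PDC2 held the 1 GCCGCC found among the members, 16 bases before its start. The called pair therefore did not share either motif in this window. AAACC stood in 60.0% of the 10 member windows and in 54.7% of 27443 windows of protein-coding nuclear genes, and GCCGCC in 10.0% and 1.87%. These matches are letters and not tested binding sites.

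At the entry to the pathway the sucrose synthase members were weakly expressed. SUS1 had 1.96 FPKM in ethylene and 1.36 FPKM in air. Its log2 fold change of 0.53 was not called, and the interval from -0.34 to 1.39 left room for a 2-fold increase. SUS4, its close relative in the set, had 0.391 FPKM in ethylene and 0.604 FPKM in air and was not tested. Most sucrose synthase transcript came from SUS3, with 9.30 FPKM in ethylene and 10.4 FPKM in air. The other relatives SUS2, SUS5 and SUS6 lay between 0.188 and 1.64 FPKM in ethylene and between 1.12 and 2.42 FPKM in air, and none of them was called. Summed over the 6 genes the family had 14.8 FPKM in ethylene and 17.7 FPKM in air, of which SUS1 was 13.2% in ethylene and 7.70% in air. No test was made of a sum of genes. SUS1 and SUS4 were 84.3% identical in coding sequence, yet neither shared any 50-base window of its longest transcript with another gene, so a fragment of that length would separate them; the read length used is not analysed here.

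In glycolysis between sucrose and pyruvate, none of 29 tested genes was called in the authors' Cuffdiff p-values after adjustment. Of all tested rows, 2.17% were called higher and 4.18% lower. At an unadjusted p under 0.05 the counts for the 29 genes were 2 higher and 0 lower. The compartment of each enzyme was not checked. The most abundant were TPI, triose phosphate isomerase, with 603 FPKM in ethylene and 517 FPKM in air, and GAPC2, a glyceraldehyde phosphate dehydrogenase, with 577 FPKM in ethylene and 481 FPKM in air. The median log2 fold change of the 29 genes was 0.08 (-0.17 when scaled to the reference genes), and their values ran from -0.42 to 0.55. On that scaling PFK4, a phosphofructokinase, and ENOC, an enolase, were called lower.

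Pyruvate decarboxylase is the step that commits pyruvate to ethanol, and PDC2 is the member that rose there. It had 13.2 FPKM in ethylene and 7.30 FPKM in air, a 1.81-fold increase (log2 fold change 0.86, implied standard error 0.26, interval 0.35 to 1.37, adjusted p = 0.0221 after Benjamini-Hochberg adjustment of the authors' p-values). PDC1, the strongly hypoxia-induced relative, had 2.51 FPKM in ethylene and 2.08 FPKM in air and was not called. PDC3, the most abundant of the family, had 27.8 FPKM in ethylene and 32.5 FPKM in air and was not called, except as lower on the reference gene scaling. AT5G01320, annotated as a further pyruvate decarboxylase, was near 0 with 0.107 FPKM in ethylene and 0.367 FPKM in air. Its coding sequence is 90.3% identical to that of PDC3, so the split of reads between this pair is uncertain.

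PDC2 rose in a family whose summed level was similar in both groups. The 4 genes summed to 43.6 FPKM in ethylene and 42.2 FPKM in air. PDC2 made up 30.3% of that sum in ethylene and 17.3% in air, and PDC3 made up 63.7% in ethylene and 76.9% in air. The log2 fold change of PDC2 exceeded that of PDC3 by 1.08 (implied interval 0.47 to 1.70) and that of PDC1 by 0.59 (interval -0.41 to 1.59), so a difference from PDC1 was not shown. Since PDC2, and likewise HB2 and SAD6 below, was set against its relatives because it was called, these differences describe the change that was already called and are not independent evidence. PDC2 is a gene of 1 exon, and no 50-base window of its transcript occurred in another gene. PDC2 no longer passed on the scaling to reference genes (log2 fold change 0.60, adjusted p = 0.1005 from the authors' p-values), nor after subtraction of the trend with transcript GC content (0.72, adjusted p = 0.0743).

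ADH1, which makes ethanol from acetaldehyde and is the classical marker of low oxygen, had 9.42 FPKM in ethylene and 9.26 FPKM in air. The log2 fold change was 0.02 with an implied interval of -0.67 to 0.72. A 2-fold change in either direction lay outside this interval, whose underlying spread may be technical. The last 61 bases of ADH1 overlap the oppositely oriented gene AT1G77122, which had 16.6 FPKM in ethylene and 21.4 FPKM in air and was not called. No source used here says whether the counting used strand. ADH2, the glutathione-dependent formaldehyde dehydrogenase of the same family, was much more abundant, with 301 FPKM in ethylene and 293 FPKM in air, and was not called.

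Genes listed as other routes from glycolysis and its ends were lower or not called. The substrate of each enzyme was not checked, so a call does not place a change in fermentation. Of 9 genes, 0 were called higher and 2 lower, beside 2.17% and 4.18% of all tested rows. The counts were the same at an unadjusted p under 0.05. ALDH2C4, an aldehyde dehydrogenase of the cytosol, fell to 52.3 FPKM in ethylene, against 83.9 FPKM in air (log2 fold change -0.68, interval -1.06 to -0.30). GAD2, a glutamate decarboxylase that makes GABA, fell to 119.9 FPKM in ethylene, against 173 FPKM in air (log2 fold change -0.53, interval -0.82 to -0.23). The GC correction brought GAD2 to -0.27, where it did not pass. Neither ALDH2C4 nor GAD2 passed at a threshold of 0.01. The list median was 0.06 on the log2 scale (-0.20 when scaled to the reference genes).

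**Figure D2:**
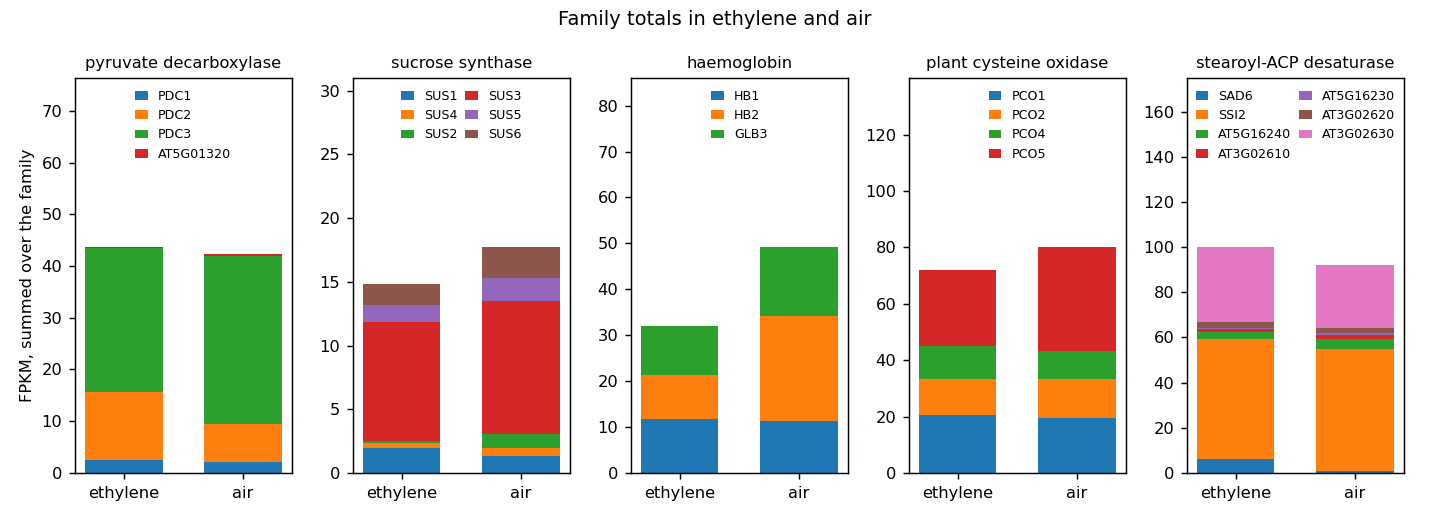
Summed FPKM (linear axis from 0) of each gene family in ethylene (left bar) and air (right bar), with 1 colour per gene; PCO3 is left out because its row is merged. The PDC2 segment is larger in ethylene while the pyruvate decarboxylase total is 43.6 FPKM in ethylene and 42.2 FPKM in air, and the haemoglobin total is 32.0 FPKM in ethylene and 49.1 FPKM in air.

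HB1, the class 1 haemoglobin that scavenges nitric oxide, had 11.8 FPKM in ethylene and 11.3 FPKM in air. Its log2 fold change was 0.07 with an interval of -0.58 to 0.72, so the gene was not called and a 2-fold increase lay outside the interval. The haemoglobin that changed was HB2, a class 2 relative that is not in the set of 10. HB2 fell to 9.61 FPKM in ethylene, against 22.8 FPKM in air (0.421-fold the air level, log2 interval -1.88 to -0.62, adjusted p = 0.00404 after Benjamini-Hochberg adjustment of the authors' p-values), and this call held on the scaling to reference genes and with the GC correction. GLB3, a truncated haemoglobin, had 10.6 FPKM in ethylene and 15.0 FPKM in air and was not called. The log2 fold change of HB2 minus that of HB1 was -1.31 (implied interval -2.22 to -0.41), and minus that of GLB3 it was -0.74 (interval -1.64 to 0.15). The coding sequences of HB1 and HB2 were 59.9% identical. The order of the 3 levels differed between the groups: HB1 was highest in ethylene and HB2 was highest in air, with no spread over libraries to set beside the levels.

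The oxygen sensors PCO1 and PCO2 were not called. PCO1 had 20.6 FPKM in ethylene and 19.5 FPKM in air, and PCO2 had 12.6 FPKM in ethylene and 13.7 FPKM in air. Their log2 fold changes were 0.08 (interval -0.38 to 0.53) and -0.12 (interval -0.65 to 0.41). A 2-fold change lay outside both implied intervals, whose underlying spread may be technical. PCO4 and PCO5, known as the members less dependent on hypoxia, were not called either. PCO4 had 12.01 FPKM in ethylene and 10.2 FPKM in air, and PCO5, the most abundant of the 5, had 26.8 FPKM in ethylene and 36.6 FPKM in air (log2 fold change -0.45, interval -0.84 to -0.06, called, as lower, on the reference gene scaling alone of the alternatives tried). A row that merges PCO3 with AT1G18486 had 9.10 FPKM in ethylene and 10.6 FPKM in air.

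SAD6, which encodes a stearoyl-ACP desaturase that introduces the first double bond into stearic acid, had the largest log2 fold change of the 10 genes. It had 6.02 FPKM in ethylene and 0.955 FPKM in air, a 6.30-fold increase (log2 fold change 2.66, implied standard error 0.89, interval 0.91 to 4.40, adjusted p = 0.0463 after Benjamini-Hochberg adjustment of the authors' p-values). The interval is the widest of the tested members. SSI2, the main plastid desaturase, had 53.1 FPKM in ethylene and 54.1 FPKM in air, and AT3G02630 had 33.2 FPKM in ethylene and 27.7 FPKM in air. The other 4 desaturase genes lay at or below 4.43 FPKM in both groups, and none of the 6 relatives was called. The log2 fold change of SAD6 exceeded those of the 6 relatives by 2.40 to 4.31, with implied intervals above 0 that are not adjusted for their number and follow in part from the choice of a called gene. SAD6 still made up a small part of the desaturase sum, 6.03% in ethylene and 1.04% in air. The 6 relatives were 61.1% to 62.4% identical to SAD6 in coding sequence, and no 50-base window of the SAD6 transcript occurred elsewhere. SAD6 and PDC2 had the highest GC content of the 10 transcripts, 47.2% and 45.1%, against 35.2% for HB1 at the low end. SAD6 did not pass with the GC correction (log2 fold change 2.45, adjusted p = 0.0784 from the authors' p-values) or when rows with a p of 1 entered the adjustment (adjusted p = 0.0807).

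**Figure D3:**
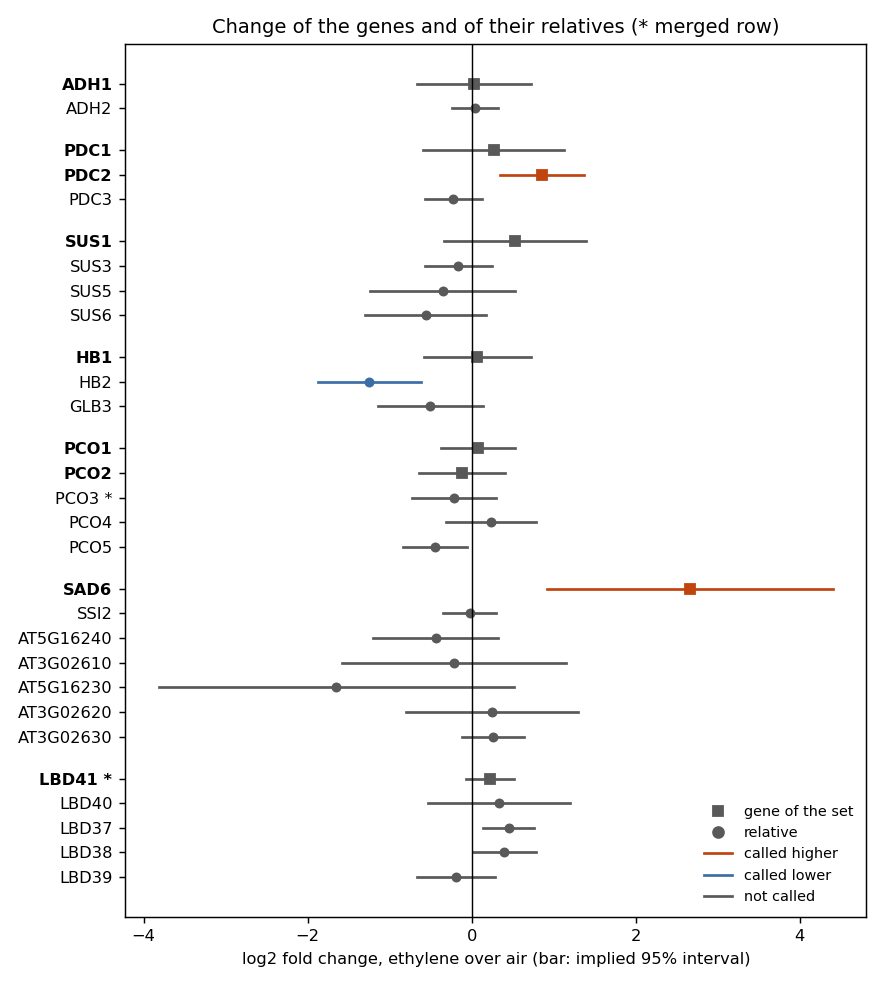
Log2 fold change, ethylene over air, of the genes of the set (squares, bold names) and of tested relatives (circles), with the implied 95% interval as a bar; SUS2, whose interval is wider than the axis, is left out. SAD6 and PDC2 are the genes called higher and HB2 is the gene called lower.

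LBD41, a LOB-domain transcription factor induced by low oxygen, was measured only together with RAD23C, a ubiquitin receptor gene. The merged row had 123 FPKM in ethylene and 106 FPKM in air (log2 fold change 0.22, interval -0.07 to 0.52, not called). Both genes lie on the minus strand of chromosome 3 with 85 bases between them in TAIR10.1, and the share of LBD41 in the row could not be taken apart. LBD40 had 6.68 FPKM in ethylene and 5.29 FPKM in air and was not called. LBD37 and LBD38, known as nitrate-responsive repressors, had 87.0 and 51.3 FPKM in ethylene, against 63.6 and 39.0 FPKM in air. They were not called, with log2 fold changes of 0.45 (interval 0.14 to 0.76) and 0.40 (interval 0.01 to 0.78), and LBD37 was called higher under the GC correction, the centring, the filter at 5 FPKM and the threshold of 0.10. LBD39 had 23.8 FPKM in ethylene and 27.2 FPKM in air and was not called, and LBD42 was listed at 0 in both groups.

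Upstream regulators of the hypoxia genes held 2 calls. Of 9 tested genes of oxygen sensing and group VII ERFs, 2 were called higher and 0 lower, beside 2.17% and 4.18% of all tested rows, and at an unadjusted p under 0.05 the counts were 2 and 1. RAP2.3, a group VII ERF, rose to 195 FPKM in ethylene, against 139 FPKM in air, while RAP2.12 had 165 FPKM in ethylene and 151 FPKM in air and RAP2.2 had 249.7 FPKM in ethylene and 300.4 FPKM in air, both without a call. PRT6, the ubiquitin ligase that reads the N-degron of these factors, rose to 16.5 FPKM in ethylene, against 11.3 FPKM in air (log2 fold change 0.55, interval 0.23 to 0.86). The arginine transferase genes ATE1 and ATE2, which act just before PRT6, had 8.77 and 4.39 FPKM in ethylene, against 11.8 and 6.99 FPKM in air, and were not called. RAP2.3 did not pass with the GC correction (log2 fold change 0.42). Neither call held at a threshold of 0.01 or on the scaling to reference genes. On that scaling RAP2.2, ATE1 and ATE2 were called lower. HRE1, a group VII ERF that is itself induced by hypoxia, had 3.51 FPKM in ethylene and 3.70 FPKM in air and was not called.

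Other hypoxia-responsive genes were called about as seldom as all tested rows, of which 6.34% were called in either direction. Their list was drawn up from general knowledge of the literature and is no published set. Of 33 tested, 2 were called higher and 0 lower, beside 2.17% and 4.18% of all tested rows, and at an unadjusted p under 0.05 the counts were 3 and 0. AT3G23170, an uncharacterised gene, rose to 48.7 FPKM in ethylene, against 28.4 FPKM in air (log2 fold change 0.78, implied standard error 0.24). It did not pass on the reference gene scaling or at a threshold of 0.01. On that scaling AT3G10020, with 206 FPKM in ethylene and 234 FPKM in air, was called lower. AT3G29970, annotated as a B12D protein, had 1.80 FPKM in ethylene and was listed at 0 in air, which can be a failed estimate. The filter at 5 FPKM left this gene out. The median of the 33 genes with a row of their own above 0 in both groups was 0.04 on the log2 scale (-0.21 when scaled to the reference genes), and 18 genes had higher and 15 lower values. Genes of the list with more than 1 row or a merged row were kept apart, and none of their rows was called.

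**Figure D4:**
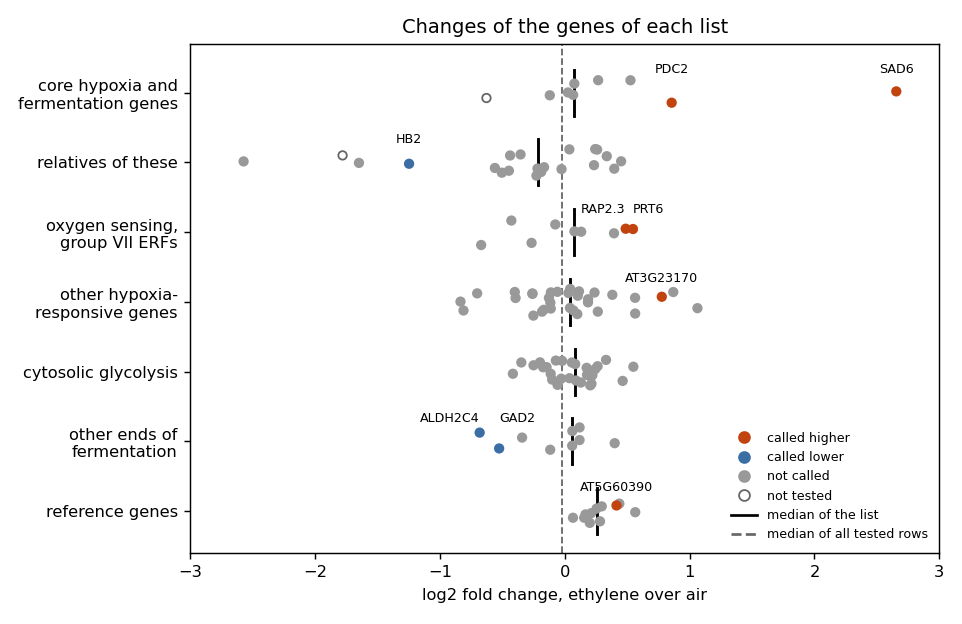
Log2 fold change, ethylene over air, of every gene with its own row above 0 in both groups, by list, with the list median (black line) and the median of all tested rows, -0.02 (dashed). NIP2;1, which was not tested, lies beyond the axis, and AT3G29970, listed at 0 in air, has no point; the medians of the lists drawn lie between -0.22 and 0.25, and the root, shoot and stress lists are not drawn.

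Reference and stress genes were examined beside these results. For comparison, 2.17% of all tested rows were called higher and 4.18% lower. The 11 reference genes with a row of their own, housekeeping genes such as actins and ubiquitins, all had higher values in ethylene, with a median log2 fold change of 0.25, and 1 was called, AT5G60390 (elongation factor 1-alpha), which did not pass with the GC correction, with rows of p 1 included, on the reference gene scaling or at a threshold of 0.01. The list's other gene, AT4G26410, had more than 1 row and was left out; its rows had 35.5 and 0.504 FPKM in ethylene, against 40.5 and 1.35 FPKM in air, and were not called. Lowering every log2 value by that median moved the median of all tested rows to -0.28, and of the members SAD6 alone was then called. Among 6 heat and handling stress genes HSP101 fell to 6.95 FPKM in ethylene, against 11.3 FPKM in air, and 0 were called higher (also 0 at an unadjusted p under 0.05). HSP101 did not pass with rows of p 1 included or at a threshold of 0.01. The part of handling in the results was not tested.

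**Figure D5:**
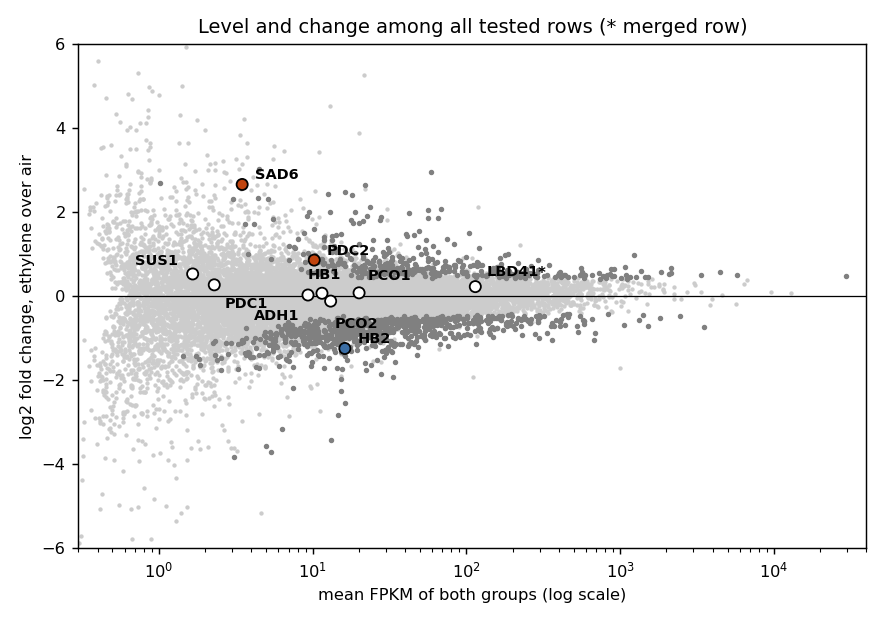
Mean FPKM of both groups (log axis) against log2 fold change, ethylene over air, for 18500 tested rows above 0 in both groups (light grey; dark grey, called; 6 rows lie outside the axes), with tested members and HB2 marked. SAD6 lies at a low level where fold changes spread widely, and ADH1, HB1, PCO1 and PCO2 lie near 0 in the middle of the range.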

How the data were processed

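RNA was sequenced from 4 libraries, 2 per group. Per the submitters' processing notes, TopHat2 2.0.9, Cuffdiff 2.0.1 and the TAIR10 genome were used; no source used here gives their settings. The deposited table gives 1 value per group, taken as FPKM because Cuffdiff is named, and the authors' unadjusted p-value, whose smallest value is 5e-05. Log2 fold changes were recomputed and equalled the deposited log2 column within 0.001 in 19947 of 19948 rows with both values above 0.

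Deposited p-values below 1 of 18696 named rows were adjusted by the Benjamini-Hochberg method at 0.05; rows with a p of 1 count as not tested. A standard error was implied from each p by a normal approximation and gave the 95% intervals, also of differences between relatives, which share libraries and were not adjusted. The 243 rows without a gene name stayed out, and they held 88.9% of the ethylene column's sum and 86.0% of the air column's. Merged and repeated rows were left out of list counts.

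The members and the 9 other lists were chosen with earlier results of these data known. Named were all members, their relatives, every called gene of a list, or else its 2 most abundant genes. AT1G77122, the uncalled genes of oxygen sensing, the root-tip and root-hair markers, SHR, CAB2, PFK4, ENOC, AT3G10020 and AT4G26410 were named after values were seen. With 2 group values, likeness of pattern was not ranked. Gene names, GC content, coding identity (global alignment), shared 50-base windows and promoters came from TAIR10.1 (RefSeq), in which 153 of 153 listed loci were found. The calculation was tested on simulated data. Alternatives were other thresholds, filters, rows tested, scalings, pseudocounts of 0.1 and 1 FPKM, and a GC correction. Software was Biopython 1.88, matplotlib 3.10.9, scipy 1.17.1, pandas 2.3.3 and numpy 2.4.6 under Python 3.11.15.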

Additional observations from a re-analysis of the deposited data

How the results depend on the processing

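At an adjusted threshold of 0.01 neither PDC2 (log2 fold change 0.86) nor SAD6 (2.66) was called, members called higher were 0, and 190 rows were called higher and 409 lower; at 0.10, 631 rows were called higher. With rows of p 1 included, SAD6 (2.66, at 0.0807) was not called and 1 member was called higher. Scaled to the reference genes, PDC2 (0.60) was not called, 1 member was called higher, 114 rows were called higher and 2728 lower, and the uncalled values of ADH1 (-0.23), HB1 (-0.19), PCO1 (-0.18) and LBD41's merged row (-0.030) changed sign. With the GC trend subtracted, PDC2 (0.72) and SAD6 (2.45) were not called, 0 members were called higher, and ADH1 (-0.065) changed sign. The adjusted p of PDC2 lay between 0.0176 and 0.1005 over the alternatives and that of SAD6 between 0.0369 and 0.0807. With pseudocounts of 0.1 and 1 FPKM the log2 fold change of SAD6 was 2.54 and 1.84, and that of PDC2 was 0.85 and 0.78. The untested log2 fold change of SUS4 was then -0.52 and -0.21. No calls were made with pseudocounts. The filters on low values, single-locus rows and median centring changed no call among members that remained. The cause of the lost calls was not tested.

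No paired analysis was possible because the deposited table holds 1 value per group; no replicate was left out for the same reason. Depth per library is unknown, and weakly expressed members (SUS1, SUS4, PDC1, SAD6) have wide or no intervals.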

Other observations

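The promoter windows of the wider set of hypoxia-responsive genes, a list drawn up from general knowledge, were compared with those of all genes as a description. Of 42 such windows of 250 bases, 23 held AAACC on either strand, a share of 54.8%, against 54.7% of 27443 protein-coding nuclear genes. GCCGCC stood in 3 of 42, a share of 7.14%, against 1.87%. A loose form of the motif bound by EIN3, ATGNANCT on either strand, stood in 6 of 42 and in 2 of the 10 members, HB1 and PCO1, against 12.5% of all genes. The hypoxia-responsive promoter element, as known from group VII ERF targets, stood in 0 of the 10 member windows and in 15 of 27443 windows.

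The transcripts of the members differ in structure. They range from 1 exon in PDC2 to 13 exons in SUS1 and SUS4 and from 989 bases in HB1 to 3490 bases in SUS1. ADH1 was the member with any 50-base window in common with another gene, 12 of 1546, all with AT1G77122, which it overlaps.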
